A study of Mus musculus with 6 samples.

Results

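The replication-dependent core histone genes were described by type (H2A, H2B, H3 and H4) in erythroid cells of the mouse fetal liver. Members were the table rows whose gene name, or 1 of several joined names, carries a Hist1 to Hist4 symbol for H2A, H2B, H3 or H4, and whose mean over the 6 libraries was at least 1 RPKM (reads scaled to the length of the transcript and to the mapped reads of the library). Of 63 rows with such a symbol, 50 qualified, among 8302 rows that reached that mean and 23119 rows in all. They comprise 11 H2A, 16 H2B, 11 H3 and 12 H4 rows. By the number in the symbol, 40 belong to the Hist1 genes, 6 to Hist2, 3 to Hist3 and 1 to Hist4.

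The cells were CD71+Ter119+ cells (CD71 is the transferrin receptor, Ter119 an antigen of the red cell lineage) from E13.5 fetal liver of C57BL/6 mice. There were 3 libraries labelled Tfam WT and 3 labelled Tfam KO, numbered alike in both groups. Tfam encodes a factor that packages and transcribes mitochondrial DNA, and the design asks which transcripts differ when it is knocked out. The labels name no Cre driver, floxed allele, litter, sex or batch, and do not state that the replicates came from separate embryos, so the p-values below measure the spread between these libraries, which may be technical.

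Core histones form the octamer around which DNA is wrapped, built from H2A, H2B, H3 and H4. A dividing cell makes them in bulk during S phase from many near-identical gene copies. The mRNAs of these genes normally end in a conserved stem-loop instead of a poly(A) tail. The stem-loop is bound by Slbp, and the precursor is cut just after it with the help of the U7 snRNP, whose own subunits include Lsm10 and Lsm11. Npat and Casp8ap2 act at the histone locus bodies, the nuclear bodies where the genes are transcribed. Erythroblasts divide rapidly while condensing their nuclei, so core histone mRNAs are of interest in this tissue. The library kit named in the labels captures poly(A) RNA in its usual protocol. The part played by tailed and untailed forms in the values below was not tested.

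The stem-loop is the feature that the mRNAs share and that the member rule did not use. It was searched for as GGNNCTTTTNANNGCC on the transcript strand of the GENCODE transcripts carrying the member names (build GRCm38), and 31 of the 50 members held it, against 0.119% of 58797 coding transcripts. For the other 19 no match was found in the annotated sequence. In the H2A, H2B and H3 members with a match the 5′ stem arm reads GGCTC, and in all 8 H4 members with a match it reads GGCCC. These examples show both arms, with the stem-loop in capitals and 5 flanking bases on each side in lower case. All lie on chromosome 13 in annotated untranslated sequence.
Hist1h2ag: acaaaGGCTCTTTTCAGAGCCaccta
Hist1h2bg: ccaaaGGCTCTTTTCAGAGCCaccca
Hist1h3c: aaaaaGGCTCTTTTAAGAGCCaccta
Hist1h4f: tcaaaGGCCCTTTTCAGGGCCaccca
Hist1h4i: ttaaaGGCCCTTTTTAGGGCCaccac
The stem-loops lie at chr13:22042483-22042498 on the minus strand for Hist1h2ag, chr13:23571843-23571858 on the plus strand for Hist1h2bg, chr13:23745047-23745062 on the minus strand for Hist1h3c, chr13:23551291-23551306 on the minus strand for Hist1h4f and chr13:22040966-22040981 on the minus strand for Hist1h4i. The annotated transcript runs on for 23 bases after the stem-loop in Hist1h2ag, for 74 in Hist1h3c and for 33 in Hist1h4f, but for 155 in Hist1h2bg and 330 in Hist1h4i. With an end within 100 bases counted as near, 15 members had a near end and 16 an annotated end further on.

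Promoter sequence differed by type as well. RefSeq windows (build GRCm38.p6, 250 bases before to 50 after the start) were found for 44 members and searched on both strands. The CCAAT box lay in 11 of 11 H2A, 13 of 13 H2B, 9 of 9 H3 and 3 of 11 H4 windows, against 37.4% of 32851 windows of this length. The octamer ATTTGCAT lay in 6 of 11 H2A and 6 of 13 H2B windows and in none of the 9 H3 or 11 H4 windows, against 1.74% of all. GGTCCG, found in H4 promoters, lay in 10 of 11 H4 windows, 1 of 13 H2B, 1 of 9 H3 and 0 of 11 H2A, against 8.25% of all. TATAAA lay in 25 of the 44, against 13.6% of all. No overlap between these motifs was removed. A match is a description of letters and not of a bound site.

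Among the members, 6 pairs of an H2A and an H2B gene face away from each other with starts 164 to 249 bases apart and share the sequence between them. The stretches below lie between the 2 starts of a pair, with CCAAT (or ATTGG, its other strand), ATTTGCAT and TATAAA in capitals. They are shown as examples of a stretch with CCAAT boxes alone and of one that also holds the octamer and TATAAA. The first is chr13:21753913-21754075 (163 bases, plus strand) and the second chr13:23571221-23571399 (179 bases, plus strand), in GRCm38.p6.
Hist1h2ak and Hist1h2bn: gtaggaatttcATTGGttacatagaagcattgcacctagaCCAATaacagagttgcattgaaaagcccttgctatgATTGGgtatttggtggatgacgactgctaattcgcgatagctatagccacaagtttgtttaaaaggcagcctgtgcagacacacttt
Hist1h2ae and Hist1h2bg: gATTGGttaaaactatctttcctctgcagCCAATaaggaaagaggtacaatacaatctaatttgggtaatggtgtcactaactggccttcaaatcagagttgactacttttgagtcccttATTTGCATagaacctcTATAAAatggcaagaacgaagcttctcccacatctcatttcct
The 120 bases before the start of the 2 H4 genes with the highest mean RPKM, which behaved differently in the libraries, both hold GGTCCG (capitals, as are CCAAT or ATTGG and TATAAA). They are chr13:22041363-22041482 on the minus strand for Hist1h4i and chr13:23581448-23581567 on the plus strand for Hist1h4d.
Hist1h4i: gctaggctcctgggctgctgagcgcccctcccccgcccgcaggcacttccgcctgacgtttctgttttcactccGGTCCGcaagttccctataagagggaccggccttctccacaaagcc
Hist1h4d: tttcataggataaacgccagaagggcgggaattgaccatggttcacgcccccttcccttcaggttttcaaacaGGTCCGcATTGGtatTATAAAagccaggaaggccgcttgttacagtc

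Before the comparison, 2 facts about the libraries bear on every value. Tfam itself had values of 7.22, 8.44 and 5.72 RPKM in WT replicates 1 to 3, and of 5.92, 7.22 and 6.25 in KO replicates 1 to 3 (7.12 ± 1.36 against 6.46 ± 0.679, SD, n = 3 each). The groups overlap and the exact two-sided permutation p was 0.7, where 3 against 3 cannot go below 0.1, so Tfam RPKM does not check the labels and WT and KO below stand for the labels. WT replicate 3 stood apart from the other 5 libraries. Its RPKM values summed to 815524, against 423263 to 535933 in the others. The ribosomal RNA precursor Rn45s was at 5526 RPKM in it, against 782 to 1143 in the others, and all 5 tested RNAs of the list without a poly(A) tail were highest there, among them Rmrp and Rpph1 at 34.1 and 82.6 RPKM. Terc, untested for its low level, was listed at 0 there, and of 43 tested snoRNA and scaRNA rows 10 were highest there, with a median of 0.267 relative to the mean of WT replicates 1 and 2. Comparisons of groups are therefore given with and without WT replicate 3, apart from the fit with the replicate block.

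The members shared a pattern across the libraries. WT replicate 3 held the highest value of 43 of the 50 members, against 41.7% of all rows tested. Among the 1658 rows with the shortest transcripts it was the highest library for 1074. Its level relative to the mean of WT replicates 1 and 2 had a median of 3.0 over the members, 1.03 over all rows and 1.57 over the 1658 rows with the shortest transcripts (at most 930 bases, where the median member has 527). H4 stood highest by this measure, with a median of 5.20, against 3.03 for H2A, 2.84 for H3 and 2.37 for H2B. The part of transcript length, library composition or RNA ends in these values was not tested.

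**Figure D1:**
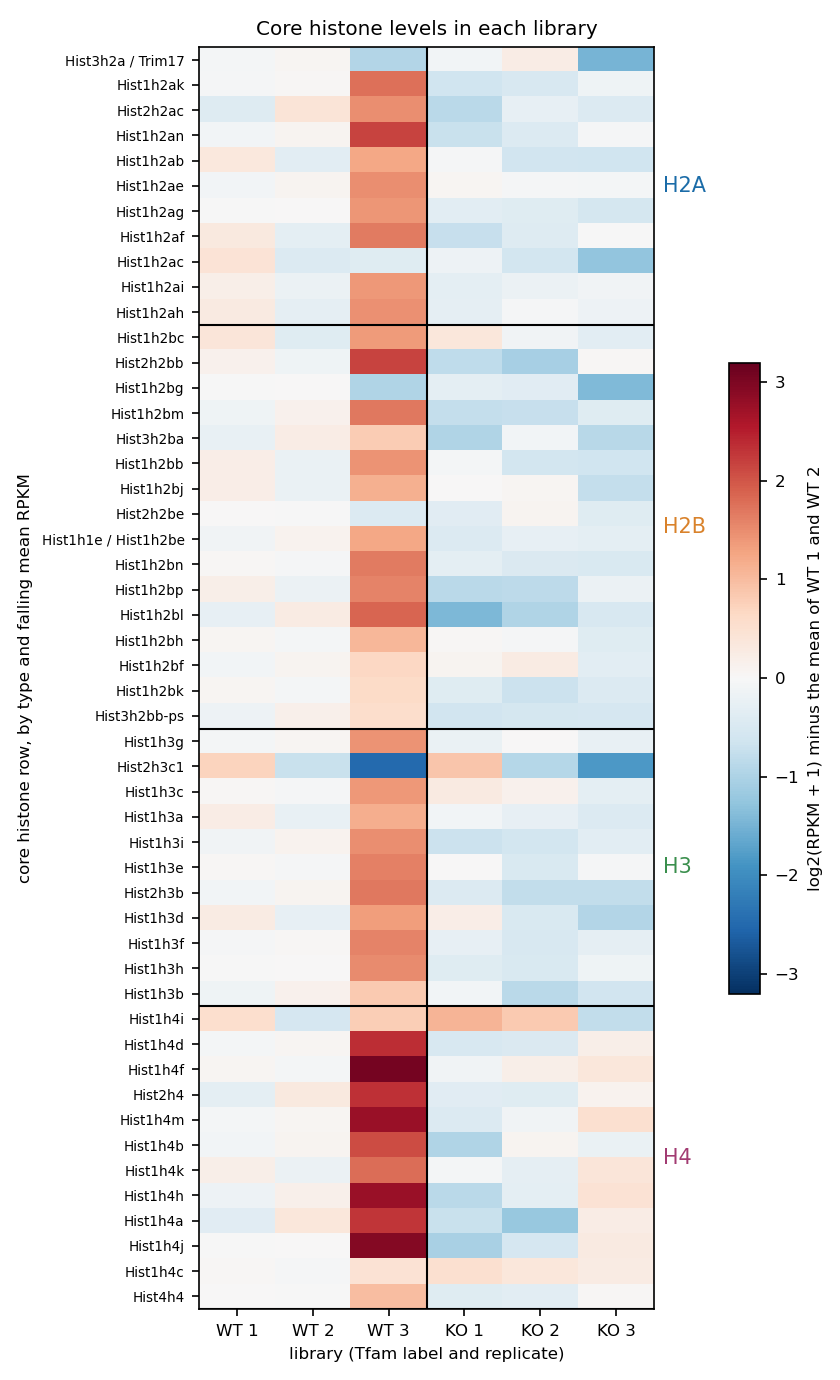
Core histone level of each row (vertical axis, by type and falling mean RPKM) in each of the 6 libraries (horizontal axis), coloured by log2(RPKM + 1) minus the mean of WT replicates 1 and 2. WT replicate 3 is the highest library for 43 of 50 rows, and most KO squares of H2A, H2B and H3 are pale to mid blue.

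In the comparison of KO with WT, none of the 50 members passed limma's test across all rows at an adjusted p of 0.05, as for all 8302 rows (0% called). The members' adjusted p ran from 0.909 to 0.958. Their fitted values nevertheless lay mostly on the lower side: 47 of 50 were lower in KO, against 53% of all rows. The median log2 fold change was -0.84 (range -1.60 to 0.22), against -0.02 over all rows. Of the 1658 rows with the shortest transcripts, 71.2% were lower, with a median of -0.16. The 47 include 3 that passed the filter only through the WT libraries and had to be lower. Fold changes are differences of log2(RPKM + 1), which understate changes of low genes. An unadjusted p under 0.05 was reached by 10 members, all lower in KO, against 1.2% of all rows in either direction. Of the 10, Hist3h2bb-ps and Hist1h3b passed the filter only through the WT libraries and had to be lower. Without WT replicate 3 the median was -0.37, with 44 of 50 lower, against -0.01 and 55% over all rows. Over the rows with the shortest transcripts these values were 0.01 and 46.0%. Again no member passed (all adjusted p were 1), while 1 row of all tested did (0.012%). In that fit 14 members had an unadjusted p under 0.05. Of these, 13 were lower in KO (Hist3h2bb-ps among them), against 0.699% of all rows, and 1, Hist1h4c, was higher. In 43 members the fitted value was lower in KO both with and without WT replicate 3. In bulk RNA, fewer cells in S phase and less histone mRNA per cell cannot be told apart.

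Library by library, the lower level was not the property of 1 KO library. KO replicates 1, 2 and 3 lay below both WT replicates 1 and 2 in 32, 34 and 32 of the 50 members, against 42.5%, 43.7% and 33.4% of all rows. The median ratio of a KO library to the mean of WT replicates 1 and 2 was 0.747, 0.729 and 0.755 over the members, and 0.972, 0.969 and 1.03 over all rows. In 12 members all 3 KO values were below all 3 WT values (2 H2A, 6 H2B, 4 H3 and no H4), as for 2.36% of all rows. With WT replicate 3 set aside the count was 13, against 5.9% of all rows. The members that passed the filter include 3 whose KO mean was under 1 RPKM (Hist1h2ah, Hist3h2bb-ps and Hist1h3b), which entered through the WT libraries and had to be lower. Hist1h2ah and Hist1h3b would not have reached the filter without WT replicate 3.

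**Figure D2:**
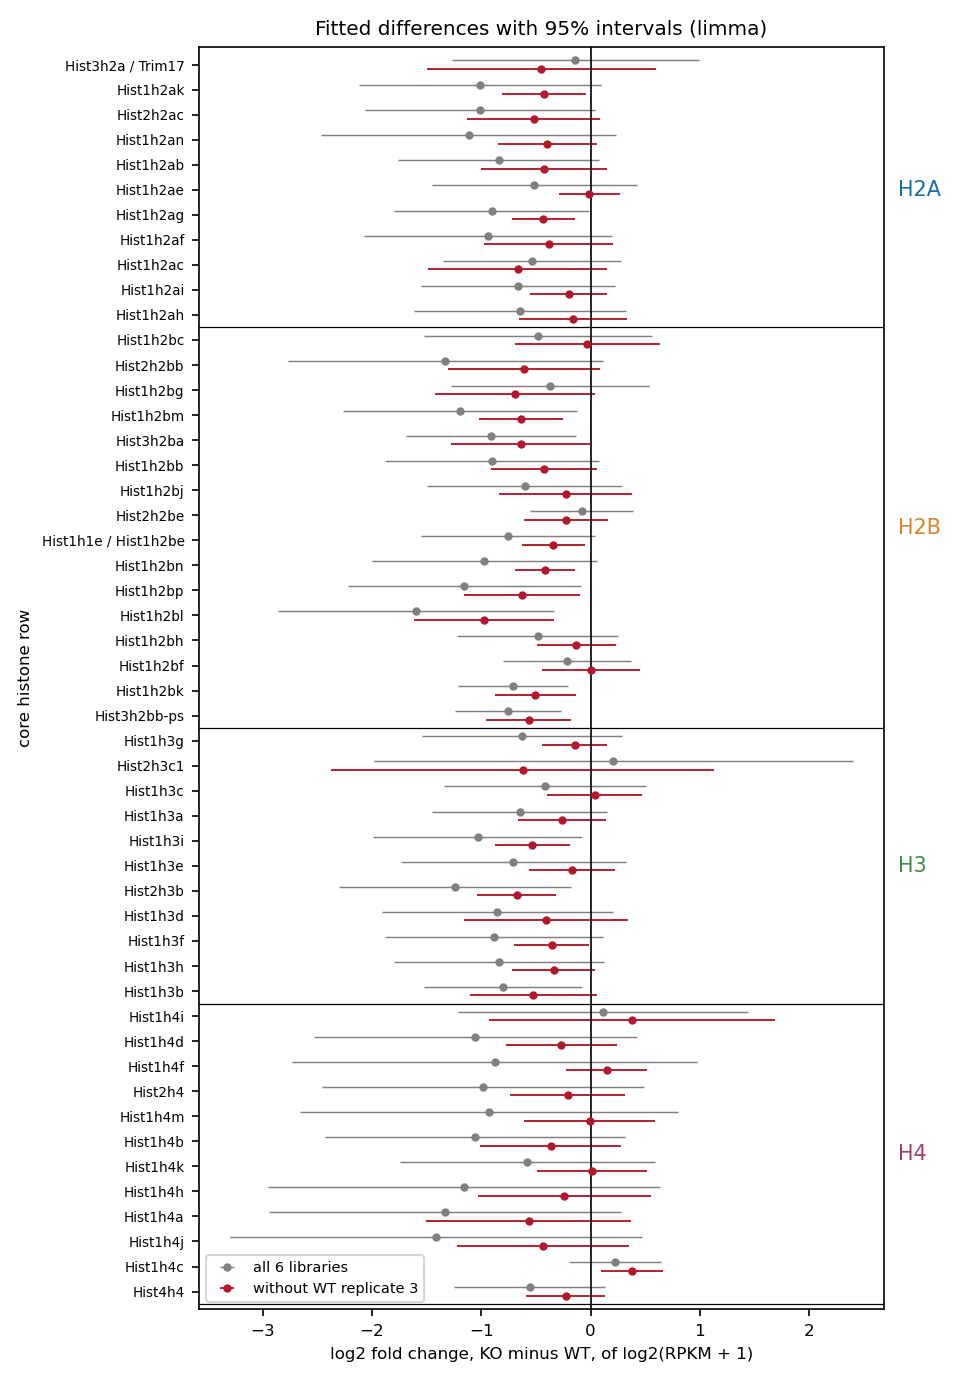
Log2 fold change of each core histone row (KO minus WT, of log2(RPKM + 1)) with its 95% interval from limma, for all 6 libraries (grey) and without WT replicate 3 (red). Leaving WT replicate 3 out moves most points toward 0 and shortens most intervals, and the points of H2A, H2B and H3 stay mainly left of 0 while those of H4 lie on both sides.

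H2A pairs with H2B in the outer part of the octamer. Its fitted value was lower in KO in 11 of 11 members with and without WT replicate 3, with medians of -0.84 and -0.43. Among the 11, Hist1h2ah passed the filter only through the WT libraries and had to be lower with all libraries. The H2A row with the highest mean joins Hist3h2a with Trim17, so its value cannot be given to either gene. It was at 51.4, 55.8 and 27.5 RPKM in WT replicates 1 to 3 and at 50.3, 62.8 and 18.4 in KO replicates 1 to 3. The groups overlap, WT 3 and KO 3 being the low libraries (log2 fold change -0.14, SE 0.48, limma adjusted p 0.94). Without WT replicate 3 the log2 fold change was -0.45, SE 0.45. Hist1h2ak was at 27.3, 28.8 and 96.8 RPKM in WT and at 17.8, 19.5 and 25.2 in KO. All KO libraries lay below all WT libraries, the highest value being WT 3 (-1.01, SE 0.47, limma adjusted p 0.909). Without that library the log2 fold change was -0.43, SE 0.16. Hist2h2ac was at 7.28, 13.5 and 29.5 RPKM in WT and at 5.04, 8.06 and 7.09 in KO, with KO 2 above WT 1 (-1.01, SE 0.45, limma adjusted p 0.909). The lowest unadjusted p among H2A members, 0.048, was that of Hist1h2ag, at 5.65, 5.79 and 16.996 RPKM in WT and 4.28, 4.16 and 3.54 in KO. Its groups did not overlap, and WT replicates 1 and 2 differed by little (log2 fold change -0.91 with all libraries, and -0.43, SE 0.12, without WT replicate 3).

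H2B had a lower fitted value in 16 of 16 members, and in 15 of 16 without WT replicate 3, with medians of -0.75 and -0.47. Among the 16, Hist3h2bb-ps passed the filter only through the WT libraries and had to be lower with all libraries. The highest H2B member, Hist1h2bc, was at 199.6, 117 and 392 RPKM in WT and at 195, 142 and 121 in KO. WT 1 and KO 1 were alike and the groups overlap (-0.48, SE 0.44, limma adjusted p 0.909), and without WT replicate 3 the log2 fold change was -0.03. Hist2h2bb was at 28.8, 23.7 and 120.2 RPKM in WT and at 14.5, 12.1 and 26.7 in KO, with KO 3 above WT 2 (-1.33, SE 0.61, limma adjusted p 0.909). Without WT replicate 3 it was at -0.61, SE 0.30. Hist1h2bg was at 46.9, 47.9 and 23.7 RPKM in WT and at 37.9, 36.7 and 17.3 in KO, with WT 3 low rather than high. All of its KO libraries lay below WT 1 and 2 (-0.37, SE 0.38, limma adjusted p 0.909, and -0.69, SE 0.31, without WT replicate 3).

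H2B held 6 of the 12 members whose groups did not overlap. Hist1h2bl had the lowest fitted value of any member: 5.76, 8.60 and 28.5 RPKM in WT and 1.95, 3.17 and 4.62 in KO (log2 fold change -1.60, SE 0.54, and -0.97, SE 0.27, without WT replicate 3). Hist1h2bm was at 26.0, 31.7 and 94.1 RPKM in WT and at 16.4, 16.8 and 21.6 in KO. Its KO libraries were close to each other and below WT 1 (-1.19, and -0.64 without WT replicate 3). The row joining Hist1h2be with the linker histone gene Hist1h1e lay between 7.97 and 21.7 in WT and between 6.12 and 7.02 in KO. Hist1h2bn lay between 7.28 and 26.0 in WT and between 5.08 and 5.88 in KO, and Hist1h2bk between 2.16 and 4.04 and between 1.04 and 1.55. Hist3h2bb-ps, annotated by GENCODE as a processed pseudogene, was at 1.29, 1.88 and 2.79 RPKM in WT and 0.673, 0.744 and 0.784 in KO. It had the lowest unadjusted p of all members, 0.0079, in the comparison of all libraries, but its low level lets it past the filter only through WT.

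H3 is the histone whose tail carries many of the best-known chromatin marks. Its fitted value was lower in 10 of 11 members both with and without WT replicate 3, with medians of -0.80 and -0.36. Among the 10, Hist1h3b passed the filter only through the WT libraries and had to be lower with all libraries. Hist1h3g was at 14.4, 15.6 and 42.5 RPKM in WT and at 12.8, 15.1 and 12.5 in KO (-0.63, SE 0.39, limma adjusted p 0.909). KO 2 lay between WT 1 and WT 2, and without WT replicate 3 the log2 fold change was -0.15. Hist2h3c1 was at 37.0, 13.0 and 3.12 RPKM in WT and at 41.8, 11.3 and 5.39 in KO. Its values followed the replicate numbers in both groups more than the labels (0.21, SE 0.93, limma adjusted p 0.953), and WT 3 was the lowest library. Hist1h3c was at 11.999, 11.2 and 31.7 RPKM in WT and at 14.4, 12.9 and 9.08 in KO, with KO 1 and 2 above WT 1 and 2 (-0.42, SE 0.39, limma adjusted p 0.909, and 0.04 without WT replicate 3).

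In 4 H3 members the groups did not overlap, KO being the lower. Hist2h3b was at 5.71, 6.68 and 22.1 RPKM in WT and at 4.28, 3.14 and 3.14 in KO, with the lowest unadjusted p of its type (0.028). Without WT replicate 3 its log2 fold change was -0.68, SE 0.15, with an unadjusted p of 0.0026, the lowest of all members in that fit. Hist1h3i was at 7.33, 8.69 and 24.4 RPKM in WT and at 4.56, 5.02 and 6.16 in KO (-1.03, and -0.53 without WT replicate 3). Hist1h3f lay between 2.13 and 8.70 in WT and between 1.26 and 1.67 in KO, and Hist1h3h between 1.71 and 6.78 and between 0.939 and 1.49. KO replicate 3 lay below WT replicates 1 and 2 in 11 of 11 H3 members, KO replicate 2 in 9 and KO replicate 1 in 5.

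H4, which pairs with H3 at the core of the octamer, differed in its pattern over the libraries. Its fitted value was lower in KO in 10 of 12 members with all libraries, but in 8 of 12 without WT replicate 3, and its median moved from -0.96 to -0.22. No H4 member had all KO libraries below all WT libraries, or below WT 1 and 2. KO replicates 1 and 2 lay below WT 1 and 2 in 9 and 8 of the 12, but KO replicate 3 in 2 of the 12. The median ratio to WT replicates 1 and 2 was 0.717, 0.776 and 1.19 in the 3 KO libraries. In KO replicate 3, H2A, H2B and H3 had ratios of 0.744, 0.701 and 0.739. The difference between types was not tested.

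Hist1h4i, the highest H4 member, was at 155, 72.3 and 185 RPKM in WT and at 226, 189 and 61.0 in KO. The groups overlap, with KO 1 highest and KO 3 lowest (0.11, SE 0.56, limma adjusted p 0.958, 95% interval -1.21 to 1.44). Without WT replicate 3 the log2 fold change was 0.38, SE 0.56. Hist1h4d, whose promoter window also holds GGTCCG, was at 26.7, 29.4 and 147.6 RPKM in WT and at 19.4, 19.9 and 31.9 in KO. KO 3 lay above WT 1 and 2 (-1.05, SE 0.63, limma adjusted p 0.909, and -0.27 without WT replicate 3). Hist1h4f was at 14.5, 13.3 and 124 RPKM in WT and at 12.7, 16.0 and 18.1 in KO. WT 3 was 8.92 times the mean of WT 1 and 2, and the log2 fold change was -0.88 (SE 0.79, limma adjusted p 0.909) with it and 0.15 without it. Hist1h4a, with the lowest unadjusted p of its type (0.092), was at 5.67, 10.2 and 41.0 RPKM in WT and at 4.24, 2.74 and 9.08 in KO. Here KO 3 lay between WT 1 and WT 2.

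With all libraries, a higher fitted value in KO was seen in 3 members, Hist1h4i, Hist2h3c1 and Hist1h4c. Without WT replicate 3 it was seen in 6 members, and Hist2h3c1, at -0.62, was not among them. Hist1h4c was at 7.35, 7.05 and 10.4 RPKM in WT and at 10.7, 9.46 and 8.85 in KO. Its KO libraries all lay above WT 1 and 2 and around WT 3 (0.22, SE 0.18, and 0.38, SE 0.12, unadjusted p 0.0165, without WT replicate 3). It was the 1 member of 50 with every KO library above WT replicates 1 and 2, against 5.42% of all rows.

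Summed over its rows, H2A was at 129.7, 132 and 270.5 RPKM in WT and at 103, 118 and 78.9 in KO. H2B was at 422, 341 and 903 in WT and at 352, 308 and 264 in KO. H3 was at 102, 76.1 and 193 in WT and at 99.9, 62.8 and 52.9 in KO, where KO 1 lay between WT 1 and WT 2. H4 was at 266, 196 and 839 in WT and at 313, 287 and 201 in KO, with overlapping groups. The KO mean was 0.564, 0.554, 0.581 and 0.616 of the WT mean for H2A, H2B, H3 and H4, and 0.765, 0.807, 0.807 and 1.16 of the mean of WT replicates 1 and 2. The H4 sum rests largely on Hist1h4i. That member made up 36.8% to 72.1% of it in all libraries but WT 3 and KO 3 (22.0% and 30.4%). Hist1h2bc made up 34.3% to 55.5% of the H2B sum and Hist1h3g 12.8% to 24.0% of the H3 sum. The row joining Hist3h2a with Trim17 made up 10.2% to 53.1% of the H2A sum. Without the highest member of each type, the 4 ratios to WT replicates 1 and 2 were 0.728, 0.696, 0.788 and 0.922. The types kept a similar order in each library: H2B made up 39.7% to 45.9% of the summed RPKM, H4 26.3% to 38.0%, H2A 11.9% to 17.7% and H3 8.10% to 11.5%.

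**Figure D3:**
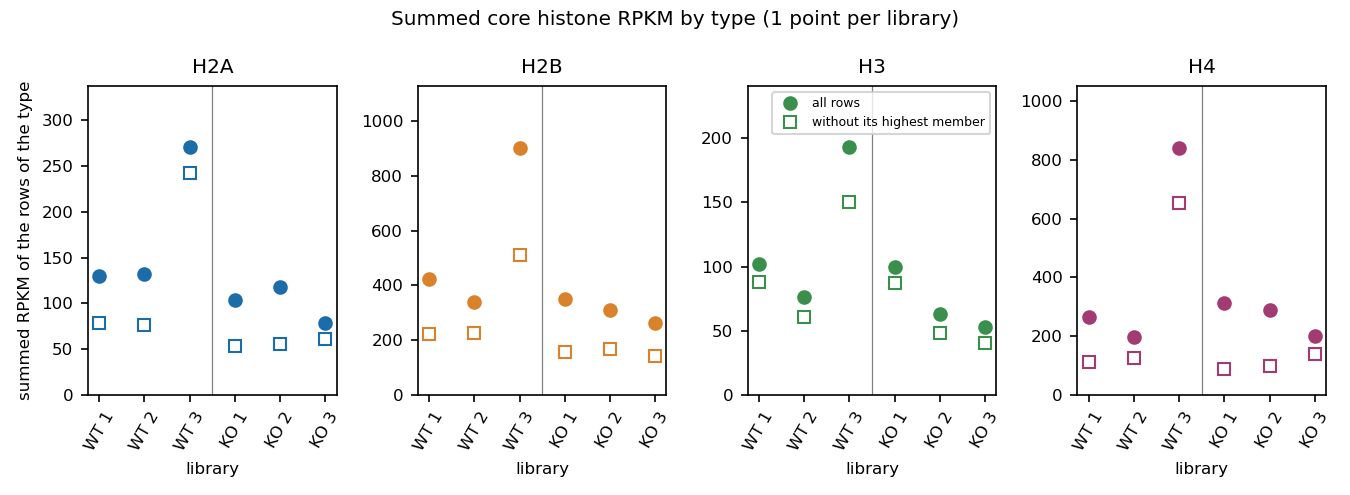
Summed RPKM of the rows of each type (vertical axis) in each library (horizontal axis), with 1 filled point per library and open squares for the sum without the highest member of the type. WT replicate 3 is highest in all 4 panels, and without it the H4 sums of KO (201 to 313) overlap those of WT (196 and 266).

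For the 6 pairs that share a promoter stretch, the fitted values of both partners were lower in KO with and without WT replicate 3. The same held for 11 of 11 H2A members, and for 16 of 16 H2B members (15 without WT replicate 3). It is therefore not particular to the pairs. Hist1h2ah, a partner in 1 pair, passed the filter only through the WT libraries and had to be lower with all libraries. No difference between partners was tested. Hist1h2ak and Hist1h2bn had log2 fold changes of -1.01 and -0.97 with all libraries and of -0.43 and -0.42 without WT replicate 3. Hist1h2ae and Hist1h2bg had -0.51 and -0.37 with all libraries and -0.01 (SE 0.12) and -0.69 (SE 0.31) without it. In WT replicate 3, Hist1h2ae was 3.16 times the mean of WT 1 and 2 and Hist1h2bg 0.50 times. Hist1h2ai and Hist1h2bl had -0.66 and -1.60, and -0.20 and -0.97 without WT replicate 3. For Hist1h2ah and Hist1h2bk the values were -0.65 and -0.71, and -0.16 and -0.51 without that library. Hist1h2an and Hist1h2bp were at -1.12 and -1.15, and at -0.40 and -0.63. Hist1h2ag and Hist1h2bj were at -0.91 and -0.60, and at -0.43 and -0.23.

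WT replicate 3 was not the highest library for 7 members: Hist3h2a with Trim17, Hist1h2ac, Hist1h2bg, Hist2h2be, Hist2h3c1, Hist1h4i and Hist1h4c. Of these, 6 belong to the 16 members whose annotated transcript runs more than 100 bases past the stem-loop and 1, Hist2h2be, to the 19 with no match. None belongs to the 15 with a near end. The annotated transcripts of these 7 members were 618 (Hist1h2bg) to 2620 bases long (Hist2h2be), where the median member has 527. The part of transcript length in this split was not tested. In Hist1h2ac, at 8.15, 4.06 and 4.18 RPKM in WT and at 5.13, 3.52 and 1.84 in KO, WT 1 was the high library. Hist2h2be was at 14.0, 13.7 and 10.013 in WT and 10.5, 14.7 and 10.4 in KO, a narrow range in both groups. The median log2 fold change was -0.88 in members with a near end, -0.55 in those with an extended end and -0.97 in those without a match, and -0.42, -0.30 and -0.40 without WT replicate 3.

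**Figure D4:**
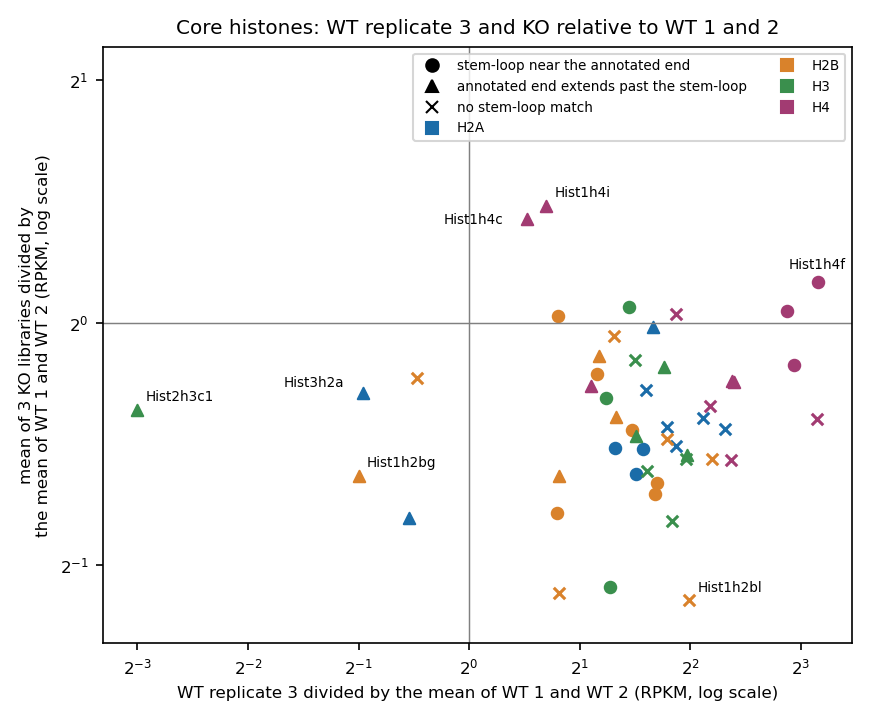
For each core histone row, WT replicate 3 (horizontal axis) and the mean of the KO libraries (vertical axis), each divided by the mean of WT replicates 1 and 2, on log axes, coloured by type and with the marker showing the annotated 3′ end. Most rows lie right of 1 and below 1, and Hist1h4i and Hist1h4c lie above 1 on the vertical axis.

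Genes that act on histone mRNA and protein were read from lists beside the members. Of 26 tested genes for histone mRNA transcription and 3′ end processing, 15 had a lower fitted value, with a median log2 fold change of -0.13, and -0.03 without WT replicate 3 (18 lower). Slbp, which binds the stem-loop, was at 233, 228 and 277 RPKM in WT and at 203, 199 and 267 in KO, with overlapping groups. Npat, which acts at the histone genes, was at 6.27, 7.32 and 2.58 RPKM in WT and at 7.17, 6.09 and 5.16 in KO, and Casp8ap2 at 6.499, 7.66 and 2.86 and at 7.45, 6.73 and 6.78. Both were lowest in WT replicate 3, whereas 14 of the 26 genes were highest there. The 1652 tested rows with the longest transcripts had a median of 0.621 in that library relative to the mean of WT replicates 1 and 2. Lsm10 was at 10.7, 9.79 and 21.1 RPKM in WT and at 7.41, 9.25 and 12.5 in KO, and Lsm11, below the filter, lay between 0.611 and 0.804 in the 6 libraries. Of 17 histone chaperones and import factors, 12 were lower, with medians of -0.10 and -0.04.

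The core histone variants on the list, most of them made also outside S phase, ranged in mean level from 10.4 RPKM (H2afy) to 2789 RPKM (H3f3a). All 8 tested had a lower fitted value with all libraries (median -0.33), and 5 of 8 without WT replicate 3 (median -0.04). H3f3a, a gene for H3.3, was at 2679, 2255 and 4510 RPKM in WT and at 2161, 1954 and 3174 in KO. H2afz, the gene for H2A.Z, was at 812, 774 and 1490.5 in WT and at 664, 716 and 979 in KO. H2afx was at 584, 477 and 1090.0 in WT and at 492, 441 and 582 in KO. In each, WT 3 was the highest library and KO 3 lay above or between WT 1 and 2. H3f3b, the other H3.3 gene, was at 399, 565 and 449 in WT and at 346, 535 and 284 in KO.

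Genes of DNA replication and S phase, the phase in which the members are transcribed, had a lower fitted value in 23 of 28 (median -0.16), and in 15 of 28 without WT replicate 3 (median -0.01). Rrm2, a subunit of ribonucleotide reductase, was at 661, 568 and 879 RPKM in WT and at 575, 511 and 868 in KO, and the row joining Pcna with Tmem230 at 727, 687 and 1090.2 and at 608, 618 and 931. In both, KO 3 was higher than WT 1 and 2. Of 18 mitosis genes 12 were lower (median -0.07), and 16 without WT replicate 3 (median -0.06). Mki67, a proliferation marker, was at 510.5, 573 and 311 RPKM in WT and at 578, 469 and 421 in KO. No gene of these 5 lists was called. RNAs without a poly(A) tail other than histones had a lower fitted value in 4 of 5 tested (median -0.83, and -0.24 without WT replicate 3), and 43 tested snoRNA and scaRNA rows had a median of 0.06 (19 lower), and -0.04 without WT replicate 3, where 1 of them was called.

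**Figure D5:**
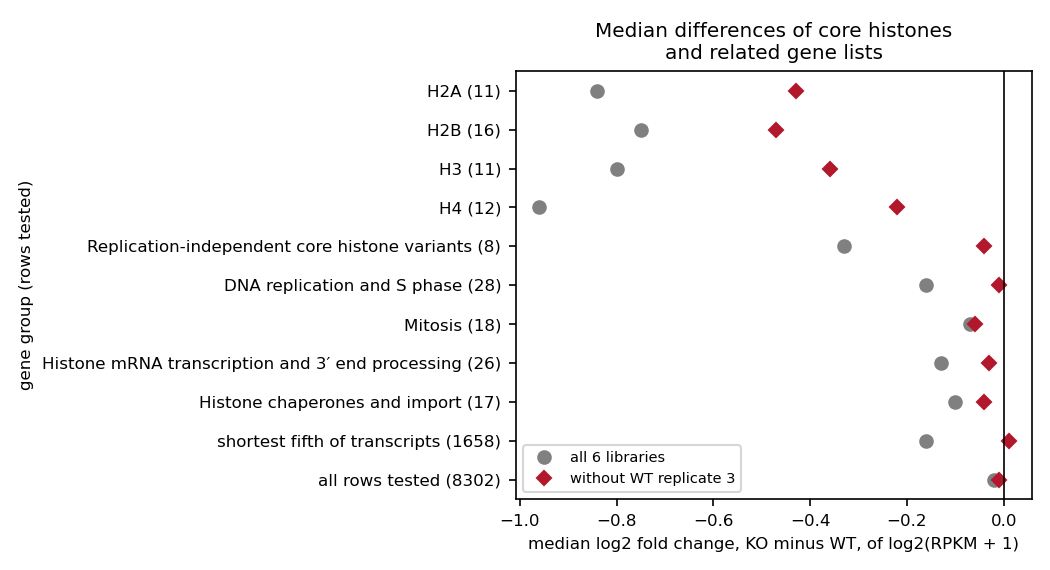
Median log2 fold change (KO minus WT, of log2(RPKM + 1)) of each core histone type, of related gene lists, of the rows with the shortest transcripts and of all rows tested, for all 6 libraries (grey) and without WT replicate 3 (red). Without WT replicate 3, H2A, H2B and H3 lie at -0.43, -0.47 and -0.36 and H4 at -0.22, while the 5 related lists drawn lie between -0.06 and -0.01.

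The sorted identity was checked on markers. All 8 erythroid markers were tested, their RPKM summing to 9884 to 14120 in WT and 8690 to 12736 in KO. Among them Epor, the erythropoietin receptor gene, was at 219.6, 215 and 389 RPKM in WT and at 112, 97.7 and 128 in KO, without overlap (log2 fold change -1.23, SE 0.28, limma adjusted p 0.909, and -0.95 without WT replicate 3). Macrophage markers summed to 16.995 to 33.2 in WT and 8.62 to 17.8 in KO over 10 genes, none of them listed at 0 in all libraries. Of the 7 tested, 7 had a lower fitted value (median -0.50, and -0.34 without WT replicate 3), and in 4 (Cd5l, C1qb, Marco and Csf1r) the highest KO value was under the lowest WT value, against 2.36% of all rows. Of these, all but C1qb had a KO mean under 1 RPKM, passed the filter only through WT and had to be lower. C1qb was at 2.98, 2.66 and 6.05 RPKM in WT and at 2.08, 2.56 and 1.34 in KO. Neutrophil and granule markers summed to 39.2, 40.0 and 173 in WT and to 28.6, 74.2 and 54.5 in KO (6 of 6 tested lower, median -0.27, and 0.35 without WT replicate 3). Megakaryocyte markers summed to 39.8 to 77.4 in WT and to 26.4 to 87.6 in KO. Of 5 tested, 3 were lower (median -0.10), and 5 without WT replicate 3 (median -0.53). Hepatocyte markers summed to 38.1 to 77.7 in WT and to 13.2 to 123 in KO. Of 6 tested, 4 were lower (median -0.10), and 5 without WT replicate 3 (median -0.27). None of the 3 endothelial markers reached a mean of 1 RPKM. The part of these cell types in the histone values was not tested.

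The replicate numbers were taken to pair the libraries, from a check of the data and not from a label. KO lay below WT in all 3 numbered pairs for 36 of the 50 members (8 H2A, 11 H2B, 8 H3 and 9 H4), against 20.1% of all rows. By pair, KO was the lower library in 43, 39 and 48 members, against 4574, 4879 and 4259 of all 8302 rows. Pair 3 sets KO 3 against WT 3, the highest library for 43 of the members. The pair counts and the block fit therefore rest in part on that library. With the replicate number as a block, which cannot change a fitted difference here, the members' medians were those given above. No member passed (lowest limma adjusted p 0.715). In that fit 26 had an unadjusted p under 0.05 and a lower value in KO (6 H2A, 10 H2B, 5 H3 and 5 H4), against 2.16% of all rows. Hist3h2bb-ps and Hist1h3b, which passed the filter only through WT, are among the 26. No block fit was made without WT replicate 3.

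At the threshold of the rule, the members just inside were Hist1h3b (mean 1.16 RPKM), Hist3h2bb-ps (1.36) and Hist1h2ah (1.48), and the rows just outside were Hist2h3c2 (0.733) and Hist2h2ab (0.699). Hist1h3b was at 0.997, 1.39 and 2.89 RPKM in WT and at 1.06, 0.200 and 0.425 in KO. Hist1h2ah was at 1.43, 0.625 and 4.46 in WT and at 0.633, 0.953 and 0.765 in KO. Of the 13 matching rows below the filter, 6 were listed at 0 in all libraries. Among the members, 39 had a mean of at least 5 RPKM, and in these the median log2 fold change was -0.90, and -0.37 without WT replicate 3. Gene copies of 1 type are near identical, so reads could be split between them, and the value of a single member is less certain than the level of its type.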

How the data were processed

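RNA was sequenced from 3 WT and 3 KO libraries, made with the TruSeq RNA Sample Preparation v2 kit per the labels' protocols. The deposited values are RPKM, made by the authors with TopHat and Cufflinks on build mm9 per the submitters' processing notes. For tool versions, annotation and strand handling, nothing is given in the sources used here. The table gives no read numbers, so depth is unknown and no counting interval is given. RPKM divides by an annotated length and a library total, so a value depends on both. Their part in the differences between libraries was not tested.

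Rows with a mean of at least 1 RPKM were tested with limma 3.58.1 (R 4.3.3) on log2(RPKM + 1) with a variance trend and Benjamini-Hochberg adjustment over 8302 rows. Another 25 rows with a number as name were left out. Intervals are at 95%. On simulated data with 8302 rows the KO versus WT test recovered 51% of log2 changes of 1 and 86% of changes of 2, with 6 false calls of 143. The simulated noise was independent between rows and libraries, and changes were placed only in rows with a mean log2(RPKM + 1) above 2. A library that stands apart in many rows together, as WT replicate 3 does, was not simulated. These rates therefore do not give the power for the members. Deviations from the group means correlated at 0.461, 0.171 and 0.526 between same-numbered libraries, each above 0.1, so the numbers were taken to pair them, although the differently numbered WT 2 and KO 1 correlated at 0.400, above WT 2 with KO 2. WT and KO numbers match in the labels, which do not say what a number marks.

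Members and lists were chosen with earlier results of these data known. The text names, per type, the 3 members with the highest mean, the lowest unadjusted p, members higher in KO, members without overlap between groups, joined rows and members near the filter, and from each list set genes and the highest ones. Other members named (Hist1h2ac, Hist2h2be, the promoter pairs) and Rmrp, Rpph1, Terc, Epor and the macrophage markers were chosen after their values were seen. Alternatives changed the pseudocount, filter, scaling, variance trend, length trend, block, joined rows and libraries. Figures were drawn with matplotlib 3.10.9 in Python 3.11.15.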

Additional observations from a re-analysis of the deposited data

How the results depend on the processing

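No core histone member was called by limma in any of the 21 alternative settings. The count of members with a lower fitted value lay between 44 and 49 when 1 library was left out, and between 36 and 51 in the others, the extremes being 36 of 39 members at a mean of at least 5 RPKM and 51 of 57 with no filter. The median over the members lay between -1.05 and -0.37 on leaving out 1 library, its value nearest 0 being without WT replicate 3. It lay between -0.97 and -0.38 in the other settings. These include fits that left out WT replicate 3 and also removed the length trend or used median scaling. With all libraries kept and the length trend removed it was -0.68. By type, leaving out 1 library gave -1.06 to -0.43 for H2A, -0.97 to -0.47 for H2B, -1.0 to -0.36 for H3 and -1.44 to -0.22 for H4. With the length trend removed from each library the medians in that order of types were -0.65, -0.64, -0.63 and -0.82. The log2 ratio of summed RPKM (KO over WT) ranged from -1.01 to -0.39 for H2A, -1.11 to -0.31 for H2B and -1.10 to -0.31 for H3 on leaving out 1 library. For H4 it ranged from -1.05 to 0.21, turning from -0.70 to 0.21 without WT replicate 3. Both groups hold the same replicate numbers, so a block on them cannot change a fitted difference. The median with the block was therefore again -0.84, and -0.68 with the length trend removed as well. With 0 members called, the block changed no call. The Tfam difference (KO minus WT, -0.658 RPKM) lay between -1.36 and -0.00126 on leaving out 1 library.

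Among 26 named members, 5 turned in direction, and the cause was not tested. Without WT replicate 3, Hist1h3c turned to 0.04, Hist1h4f to 0.15 and Hist2h3c1 to -0.62. With the length trend removed in addition they were at 0.02, 0.11 and -0.62, and with median scaling in addition at 0.04, 0.14 and -0.62, both settings chosen after seeing the data. Hist2h3c1 was at -0.55 without KO replicate 1. Hist1h4i turned to -0.29 without WT replicate 2, -0.24 without KO replicate 1 and -0.12 without KO replicate 2. The row joining Hist3h2a with Trim17 turned to 0.05 without WT replicate 2 and to 0.38 without KO replicate 3. On leaving out 1 library these members ranged from -0.67 to 0.04 (Hist1h3c), -1.42 to 0.15 (Hist1h4f), -0.62 to 0.98 (Hist2h3c1), -0.29 to 0.69 (Hist1h4i) and -0.48 to 0.38 (the Hist3h2a and Trim17 row). The number of members with an unadjusted p under 0.05, 10 with all libraries, lay between 3 (KO replicate 2 left out) and 24 (WT replicate 2 left out), and leaving out KO replicate 1 gave 5, KO replicate 3 gave 4 and WT replicate 1 gave 21. It was 17 with the length trend removed and 29 with the block in addition. Depth is unknown, so no counting precision can be given for low members.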
